A study of Saccharomyces cerevisiae with 8 samples.

Results

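The data described here are the coding-sequence (CDS) counts of 5 cultures of the budding yeast Saccharomyces cerevisiae that grew in mixtures of LiCl and cycloheximide, set against 1 culture that grew without drug. These 6 libraries are part of a series of 8, and each is a single ribodepleted RNA library of strain BY4741. The members are the genes that stood at least 2-fold above the no drug library in all 5 mixtures, or at least 2-fold below it in all 5. They number 389, of which 310 were higher and 79 lower, out of 6343 genes with a mean of at least 20 counts over the 6 libraries and 6697 CDS genes counted. The fold limit of 2 was set for this description. It uses the same contrast as the values given for the members, so those values are a description, and a p given for a member against no drug is not independent of its choice.

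The 7 drug cultures lay on an isobole, a line of LiCl and cycloheximide mixtures that each hold growth inhibition at 50%. Point 1 was cycloheximide only, points 2 to 6 were the 5 mixtures and point 7 was LiCl only, and concentrations were not used here. All cultures were BY4741, a haploid MATa laboratory strain that lacks functional HIS3, LEU2, MET17 and URA3, and the rich medium was YPD. Cultures grew for about 17 h to an optical density of about 0.5. Stock was diluted 130-fold into wells with drug and a further 100-fold for the well without drug, so the presence of drug and the size of the inoculum cannot be told apart. The no drug condition was 1 library, the 5 comparisons with it share that library, so a change seen in all 5 is not 5 independent observations. The labels do not give separate cultures of any 1 mixture, and the spread over the 5 mixtures includes any change along the isobole.

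Cycloheximide stalls the ribosome during elongation. LiCl brings cation and osmotic stress, and lithium inhibits enzymes that need magnesium, among them the phosphatase Met22, which clears a by-product of sulfate assimilation. Yeast couples the making of ribosomes closely to growth: RNA polymerase I makes the ribosomal RNA, and a large set of assembly factors, the ribosome biogenesis factors, cut, modify and fold it in the nucleolus. Sulfate assimilation is the pathway by which yeast reduces sulfate to sulfide for methionine and cysteine. Met17 is the step that joins sulfide to a carbon chain, so a strain without it grows on methionine from the medium.

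The mixture libraries held 13693401 to 17673770 CDS counts and the no drug library 15297969. LEU2, MET17 and URA3 had 0 counts in all 6 libraries, where a count of 0 allows up to 3 counts. HIS3 had 347 to 671 counts in the mixtures and 578 without drug, and the deletion in this strain is known to remove only a stretch of that gene. Of the cell type markers, the 7 MATa genes summed to 502 to 700 CPM (counts scaled to a library of 1000000 counts) in the mixtures and 364 CPM without drug, the 5 MATalpha genes to 15.5 to 18.7 and 15.4 CPM, and the 11 genes of meiosis and sporulation to 41.8 to 46.1 and 39.5 CPM. None of these 23 markers was at 0 in any of the 6 libraries.

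Levels are CPM after TMM scaling, which sets libraries to the trimmed mean of their gene-wise ratios. Changes are log2 ratios of a mixture over no drug, with 0.5 counts added. The error given as SD is the spread of the 5 changes. The counting standard error (SE) covers only the counts of the libraries and is shared in large part by the 5 changes, through the 1 control. The test was edgeR's quasi-likelihood test of the 5 mixtures as 1 group against no drug, with Benjamini-Hochberg adjustment over 6343 genes and a threshold of 0.05. It takes the spread from the mixtures alone and assumes that the lone control varies as they do. An exact permutation test of 1 library against 5 cannot go below p = 0.167, so single values carry no such test.

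Mixtures resembled each other more than any of them resembled no drug. Changes of any size in the same direction in all 5 mixtures were found upward in 2273 genes (35.8%) and downward in 2028 (32.0%). The median absolute log2 difference over the 6343 genes lay between 0.12 and 0.25 for pairs of mixtures. It lay between 0.33 and 0.43 for a mixture against no drug. At least 2-fold higher levels were found in 544, 467, 472, 525 and 629 genes at points 2 to 6, and at least 2-fold lower levels in 207, 175, 160, 264 and 374. Genes higher in all 5 mixtures were 4.89% of the genes tested and genes lower in all 5 were 1.25%. Of the others, 97 genes passed the limit upward in 4 mixtures and 39 downward. By edgeR, 839 genes (13.2%) were higher and 544 (8.58%) lower in the mixtures. Of the 310 genes above the fold limit edgeR called 298, and of the 79 below it all 79. Both rest on the same contrast and libraries, so this overlap was largely set by the choice of members. With libraries scaled to their total CDS counts in place of TMM the median of all genes moved from 0.02 to 0.26 on the log2 scale, and the numbers became 480 higher and 47 lower by the fold limit, and 1368 higher and 205 lower by edgeR. Changes below are best read relative to that shift. List counts given below with scaling to total counts belong beside 480 and 47 of 6343 genes, and not beside 4.89% and 1.25%.

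**Figure D1:**
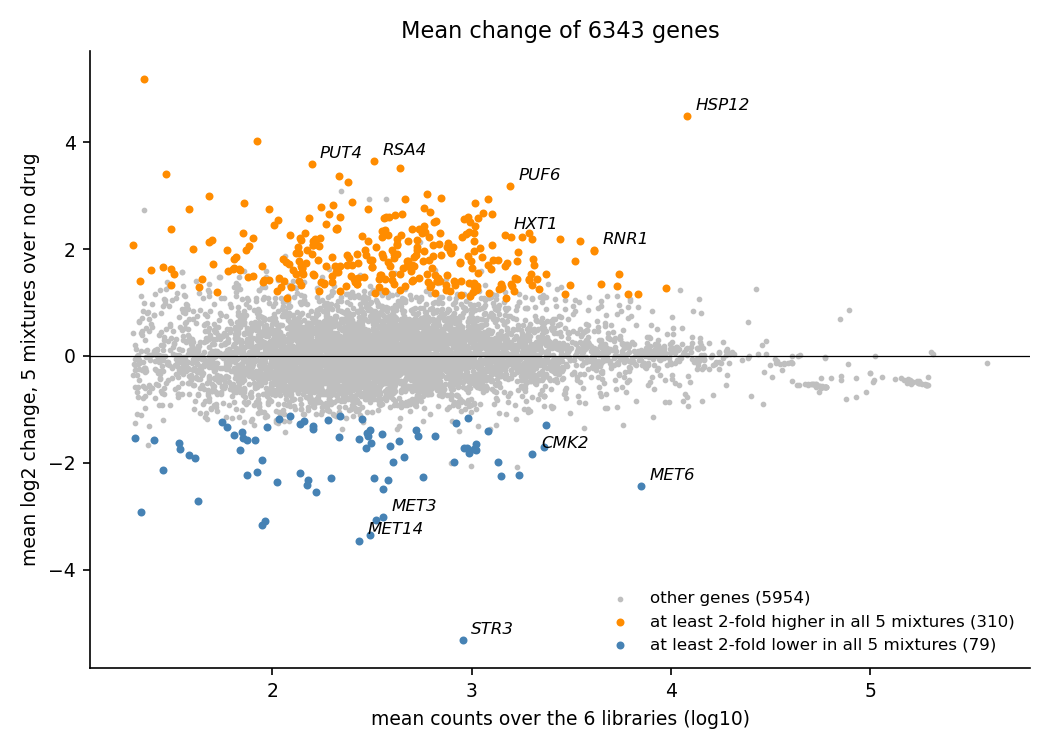
Mean log2 change of the 5 mixtures over no drug (vertical axis) against the mean count over the 6 libraries (horizontal axis, log10), 1 point a gene for 6343 genes. The 310 genes at least 2-fold higher in all 5 mixtures (orange) and the 79 at least 2-fold lower (blue) lie on both sides of the other genes (grey), with HSP12 at 4.49 and STR3 at -5.31; the highest orange point, with 0 counts without drug, depends on the counts added.

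The 310 higher genes had a median log2 change of 1.77, a 3.42-fold difference, and 64 of them were at least 4-fold higher in every mixture. Their median SD over the mixtures was 0.20 and their median counting SE 0.15. Together they took 1.62% to 1.90% of the CDS counts in the mixtures and 0.438% without drug. The 79 lower genes had a median log2 change of -1.72, a 3.30-fold difference, with 14 at least 4-fold lower in every mixture, a median SD of 0.26 and a median counting SE of 0.08. They took 0.155% to 0.232% of the CDS counts in the mixtures and 0.630% without drug. RefSeq annotation was missing for 26 of the higher genes and 5 of the lower. Of the higher genes 54 overlapped another CDS and 9 held repeated sequence, and of the lower genes 10 and 1. The authors counted without strand and counted multi-mapping reads at every place, so these genes' counts may hold reads of a neighbour or a copy.

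Genes of ribosome assembly made up the largest group among the higher genes. Of 120 ribosome biogenesis genes in the list used here, 89 (74.2%) were at least 2-fold higher in all 5 mixtures, beside 4.89% of all genes, and none was lower. By edgeR 111 of the 120 rose and 0 fell, with 0 lower also at an unadjusted p under 0.05 and by DESeq2. The median log2 change of the list was 1.85, beside 0.02 over all genes. The list is not complete, since factors such as RSA4 stood outside it, and it was chosen with earlier results of these data known.

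Assembly factors of both subunits were among the largest rises. RSA4, a factor of the precursor of the large ribosomal subunit (chrIII:240805-242352, build R64), measured 28.99, 25.1, 22.6, 23.7 and 22.1 CPM at points 2 to 6 and 1.91 CPM without drug. All 5 mixtures lay far above the control and close to each other. Its mean change was 3.65 ± 0.16 (SD over 5 mixtures, counting SE 0.29), a 12.5-fold difference, with an edgeR adjusted p of 0.000178. SSF1, needed to assemble the large subunit, measured 37.5, 28.7, 29.6, 28.2 and 42.4 CPM at points 2 to 6 and 2.83 CPM without drug, a change of 3.52 ± 0.27 (adjusted p = 0.000557, edgeR). PUF6, an RNA-binding protein that also acts in large subunit assembly, measured 129, 116, 109, 114 and 119.9 CPM at points 2 to 6 and 12.9 CPM without drug, a change of 3.18 ± 0.09 (adjusted p = 9.27e-05, edgeR). The 5 values of PUF6 differed little, and its counts were the deepest of the 3, at 1565 on average.

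Large subunit factors with enzymatic roles rose as well. SPB1, a methyltransferase of the ribosomal RNA precursor, measured 30.97, 29.4, 31.8, 38.5 and 41.6 CPM at points 2 to 6 and 4.44 CPM without drug, a change of 2.93 ± 0.22. DRS1, an RNA helicase, measured 89.9, 78.9, 83.3, 88.1 and 82.9 CPM at points 2 to 6 and 13.2 CPM without drug, a change of 2.67 ± 0.08. Neither gene's mixture values came near the control. YTM1, a scaffold protein that works with Erb1, measured 48.95, 43.3, 39.7, 43.8 and 54.97 CPM at points 2 to 6 and 7.04 CPM without drug, a change of 2.70 ± 0.18. The adjusted p of these 3 genes by edgeR was 0.000453, 0.000108 and 0.000363.

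Factors of the small subunit ranged more widely than the 4 with large rises named here, since UTP20 and KRR1, named after their values were seen, changed by 1.12 and 0.55 (adjusted p = 0.0113 and 0.0808, edgeR). UTP6, a subunit of the small-subunit processome, the particle that makes the first cuts in the RNA precursor, measured 20.04, 16.02, 15.6, 17.4 and 20.9 CPM at points 2 to 6 and 1.84 CPM without drug, a change of 3.26 ± 0.19. BFR2, which acts in the same particle, measured 18.1, 13.8, 15.4, 15.9 and 18.4 CPM at points 2 to 6 and 1.53 CPM without drug, a change of 3.38 ± 0.17. HCA4, an RNA helicase, measured 82.5, 70.1, 74.6, 80.5 and 81.3 CPM at points 2 to 6 and 10.6 CPM without drug, a change of 2.86 ± 0.10. In all 3 the control was several-fold below the lowest mixture. LCP5, a further processome factor, measured 15.8, 9.29, 12.1, 12.5 and 16.1 CPM at points 2 to 6 and 1.84 CPM without drug, and its change of 2.79 ± 0.32 rested on 24 counts in the control. By edgeR the adjusted p was 0.000363 for UTP6, 0.000320 for BFR2, 0.000108 for HCA4 and 0.00288 for LCP5.

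**Figure D2:**
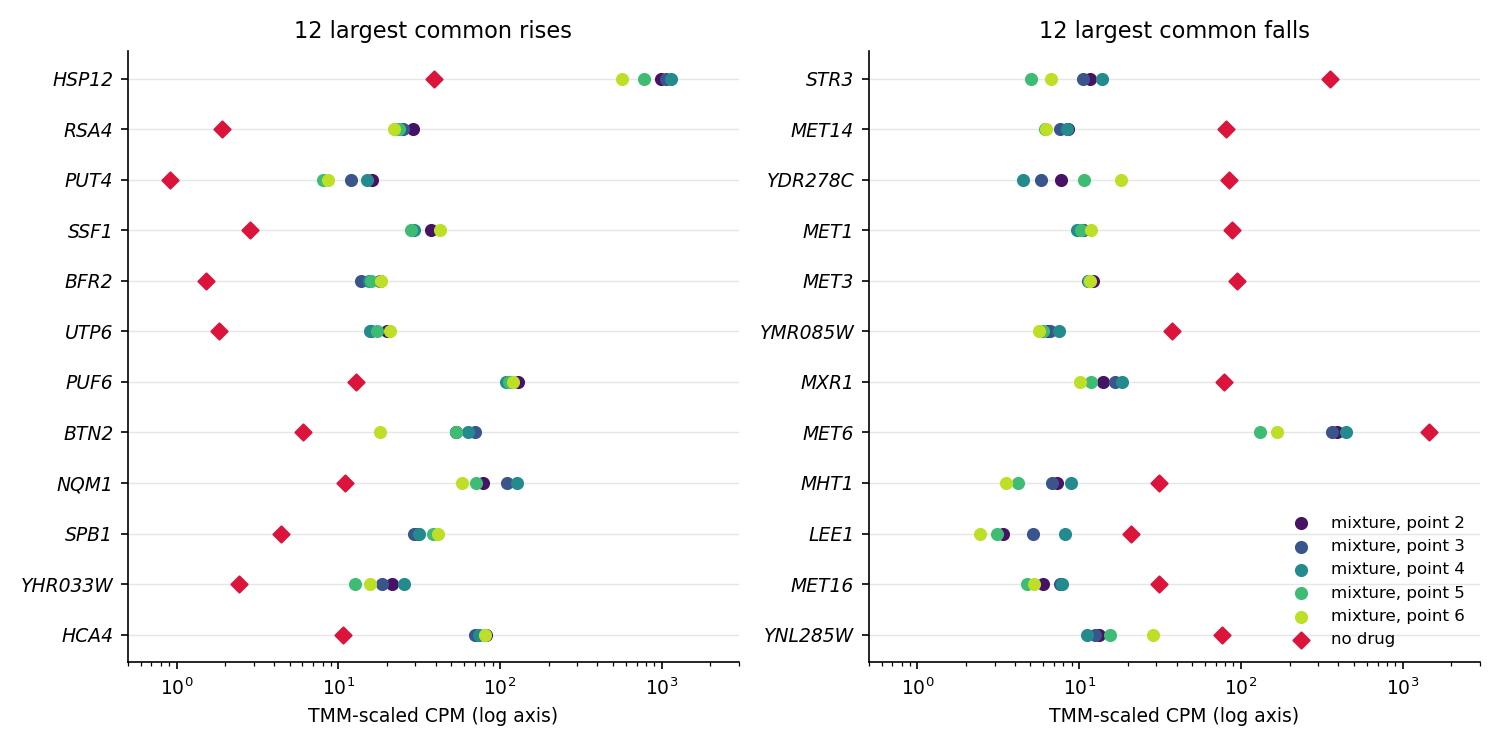
TMM-scaled CPM (log axis) of the 12 genes with the largest common rise (left) and the 12 with the largest common fall (right) in the 5 mixture libraries (circles, points 2 to 6) and the no drug library (red diamond). In each of the 24 genes the diamond lies outside the range of the circles, by the rule that chose them; MET3 shows the narrowest circles, at 11.3 to 12.2 CPM.

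Some assembly factors were not called. The smallest changes among the 120 were in 3 nucleolar factors named after their values were seen: -0.03 in GAR1 (adjusted p = 0.941, edgeR), 0.17 in NOP10 (0.510) and 0.19 in NOP8 (0.436). The members of the box C/D core that guide methylation of ribosomal RNA rose less than the median of the list: NOP1 changed by 0.89 (adjusted p = 0.0141, edgeR), NOP56 by 0.74 (0.0142) and NOP58 by 1.16 (0.00324). These were also named after their values were seen.

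The promoters of these genes share 2 short sequences, which the choice of members did not use. PAC (GATGAG) is the site of the repressors Dot6 and Tod6, and RRPE, here its core AAAATTTT, is the site of Stb3. Windows of 250 bases before to 50 after the start codon were read from build R64 for 5994 genes, and each motif was searched on both strands. PAC was in 93.3% of the 89 promoters of the higher ribosome biogenesis genes and in 20.4% of all promoters. The RRPE core was in 83.1% of the 89 and in 9.0% of all. Among the other 195 higher genes with a promoter, the shares were 49.2% and 26.7%. Of the 74 lower genes with a promoter, 17.6% held PAC and 0 held the RRPE core. A match to 6 or 8 letters is a description of the sequence and not a bound site.

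Both motifs are printed here for promoters of the genes with the largest rises, as 30 bases on the strand of the gene, with the motif in capitals. In RSA4 PAC ends 87 bases before the start codon and the RRPE core 118 bases before it, and the same order, PAC nearer to the gene, holds in UTP6 and PUF6. In SSF1 PAC stands in the reverse orientation.
RSA4, PAC, chrIII:242427-242456, minus strand: aaaaaaaaatgcGATGAGcttcaaaaagag
RSA4, RRPE core, chrIII:242459-242488, minus strand: gaaaccggtgaAAAATTTTaaaatgaaaaa
UTP6, PAC, chrIV:1358990-1359019, minus strand: aaagatctgggcGATGAGctaaatatcagg
UTP6, RRPE core, chrIV:1359013-1359042, minus strand: gtattctcttgAAAATTTTttagaaagatc
PUF6, PAC, chrIV:1443480-1443509, minus strand: ttgctgggatgaGATGAGatgcctacctaa
PUF6, RRPE core, chrIV:1443501-1443530, minus strand: gagaaatactgAAAATTTTttttgctggga
SSF1, PAC, chrVIII:229226-229255, plus strand: gaagaagctcatCTCATCgcgatattagtt

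**Figure D3:**
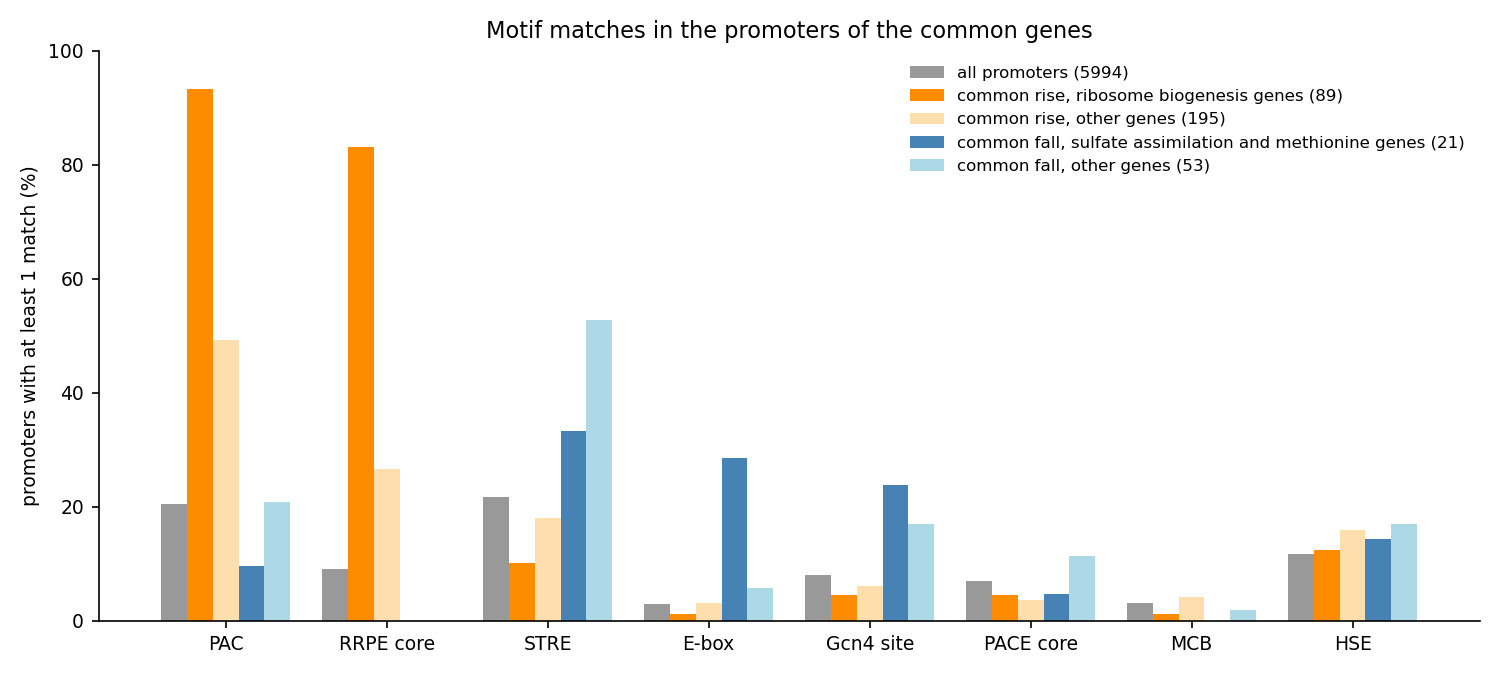
Share of promoters (vertical axis, %) with at least 1 match to each of 8 motifs, in all 5994 promoters (grey), in the higher genes of the ribosome biogenesis list (89, orange) and the other higher genes (195, pale orange), and in the lower genes of the sulfate and methionine list (21, blue) and the other lower genes (53, pale blue). PAC and the RRPE core reach 93.3% and 83.1% in the first group, against 20.4% and 9.0% of all promoters.

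Machinery that works beside the assembly factors rose in part. Of 31 genes of RNA polymerases I and III, which make ribosomal RNA and tRNA, 8 (25.8%, beside 4.89% of all genes) were at least 2-fold higher in all mixtures. With scaling to total counts 15 were, and more of all genes passed as well. By edgeR 18 of the 31 rose and none fell, where 13.2% of all genes rose, and the median change was 0.98. RRN3, the initiation factor of RNA polymerase I, measured 21.2, 16.5, 17.2, 20.8 and 29.2 CPM at points 2 to 6 and 7.34 CPM without drug, a change of 1.48 ± 0.33 (adjusted p = 0.0165, edgeR). RPC53, a subunit of RNA polymerase III, measured 29.1, 28.8, 28.1, 33.3 and 37.6 CPM at points 2 to 6 and 10.8 CPM without drug, a change of 1.53 ± 0.18 (adjusted p = 0.00240, edgeR). RRN11, a further polymerase I factor, changed by 1.98 ± 0.50 on 17 control counts (adjusted p = 0.0322, edgeR).

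Translation factors were more mixed. Of 44 genes 3 (6.82%) passed the fold limit upward, near the 4.89% of all genes. With scaling to total counts 8 did, and more of all genes passed as well. By edgeR 14 rose and 1 fell, beside 13.2% and 8.58% of all genes, and the median change was 0.22. The 3 were GCD14 (1.69 ± 0.31) and GCD10 (1.58 ± 0.16), the subunits of a tRNA methyltransferase, and NIP1 (1.34 ± 0.17), a subunit of initiation factor eIF3. NIP1 measured 370.2, 354, 292, 288 and 298 CPM at points 2 to 6 and 126 CPM without drug.

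Ribosomal protein genes gave no calls. Of 137, none passed the fold limit in either direction and 0 were called by edgeR, with 1 higher and 0 lower at an unadjusted p under 0.05, and 1 higher and 0 lower by DESeq2. Their median change was 0.41, 0.21, -0.05, -0.05 and -0.21 at points 2 to 6, so that it was above 0 at the cycloheximide-rich points and below 0 at the LiCl-rich ones. Ribosome biogenesis genes had medians of 1.89, 1.66, 1.69, 1.93 and 2.11 at the same points. The difference between both lists was not tested.

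**Figure D4:**
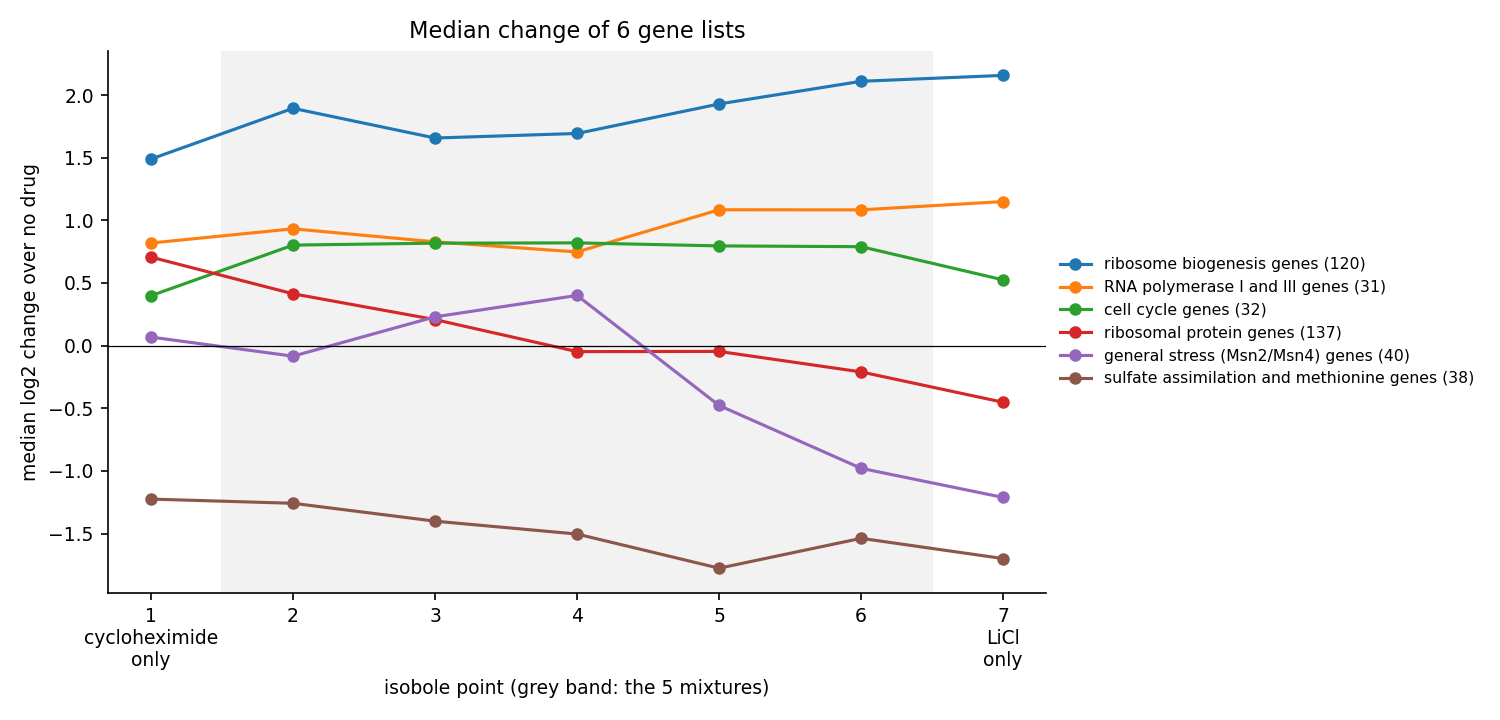
Median log2 change over no drug (vertical axis) of 6 gene lists at the 7 isobole points (horizontal axis), with the number of genes in brackets and the 5 mixtures on a grey band. Ribosome biogenesis genes stay between 1.49 and 2.16 and sulfate and methionine genes between -1.78 and -1.22 at all 7 points, while general stress genes run from 0.40 at point 4 to -1.21 at point 7.

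Genes of sulfate assimilation and methionine made up the largest group among the lower genes. Of 38 genes in the list, 21 (55.3%) were at least 2-fold lower in all 5 mixtures, beside 1.25% of all genes, and none was higher. With scaling to total counts 19 were lower. By edgeR 25 fell and 2 rose. The median change of the list was -1.47. Since MET17 is deleted, these changes were measured in a strain that cannot complete the pathway from sulfate.

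The first steps of the pathway fell several-fold. MET3, ATP sulfurylase, which activates sulfate, measured 12.2, 11.3, 11.5, 11.6 and 11.6 CPM at points 2 to 6 and 94.4 CPM without drug (chrX:456239-457774). Its 5 mixture values were nearly the same, and its change was -3.02 ± 0.04 (counting SE 0.06, edgeR adjusted p = 5.56e-06). MET14, the kinase of the next step, measured 8.51, 7.59, 8.42, 6.13 and 6.27 CPM at points 2 to 6 and 80.7 CPM without drug, a change of -3.46 ± 0.23 (adjusted p = 3.47e-05, edgeR). MET16, the reductase that follows, measured 5.94, 7.64, 7.78, 4.77 and 5.25 CPM at points 2 to 6 and 31.1 CPM without drug, a change of -2.33 ± 0.32 (adjusted p = 0.000651, edgeR). MET5 and MET10, the subunits of sulfite reductase, changed by -2.24 and -1.72. MET1 and MET8 make siroheme, the cofactor of that enzyme. MET1 measured 10.5, 10.5, 9.63, 10.3 and 11.9 CPM at points 2 to 6 and 88.7 CPM without drug, a change of -3.07 ± 0.11 (adjusted p = 9.92e-06, edgeR), and MET8 changed by -1.76.

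Later steps of methionine synthesis fell too. STR3, which makes homocysteine from cystathionine, showed the largest fall of all, at 11.7, 10.6, 13.8, 5.02 and 6.66 CPM at points 2 to 6 and 358 CPM without drug (chrVII:154615-156012). Its mixture values at points 5 and 6 were below those at points 2 to 4, and all lay far below the control. The change was -5.31 ± 0.61 (counting SE 0.06, edgeR adjusted p = 0.000149), a 39.8-fold difference. MET6, methionine synthase, was the most abundant member of the list in the control and measured 390.4, 368, 444, 132 and 168 CPM at points 2 to 6 and 1463 CPM without drug. It was lower at points 5 and 6 than at points 2 to 4, and its change was -2.44 ± 0.80 (adjusted p = 0.0168, edgeR). MET2, which activates homoserine, measured 14.2, 13.3, 15.3, 12.5 and 12.7 CPM at points 2 to 6 and 66.00 CPM without drug, a change of -2.28 ± 0.12 (adjusted p = 8.29e-05, edgeR). MHT1, which recycles methylmethionine, measured 7.34, 6.79, 8.87, 4.21 and 3.52 CPM at points 2 to 6 and 31.3 CPM without drug, a change of -2.42 ± 0.56 (adjusted p = 0.00363, edgeR).

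Uptake, use and regulation were also represented. The methionine permeases MUP1 and MUP3 changed by -2.24 and -1.99, the S-adenosylmethionine permease SAM3 by -2.26, the S-adenosylmethionine synthetase SAM2 by -1.99 and the sulfate permease SUL2 by -1.56, all called lower by edgeR. Not called were the other sulfate permease SUL1 (-0.22, adjusted p = 0.400), the permeases MMP1 (-1.36, 0.0614) and YCT1 (-0.46, 0.123), and the regulators MET30 (-0.14, 0.695) and MET31 (0.43, 0.247), named after their values were seen. MET28, a regulator of the pathway, measured 2.42, 2.77, 2.62, 3.16 and 2.62 CPM at points 2 to 6 and 24.4 CPM without drug, a change of -3.16 ± 0.14 (adjusted p = 5.19e-05, edgeR). SEO1, a putative permease, measured 1.61, 1.70, 1.595, 0.929 and 1.98 CPM at points 2 to 6 and 10.1 CPM without drug, a change of -2.71 ± 0.41 (adjusted p = 0.000760, edgeR). Outside the list, MXR1, which repairs oxidised methionine in proteins, measured 14.02, 16.6, 18.4, 11.8 and 10.2 CPM at points 2 to 6 and 78.7 CPM without drug, a change of -2.50 ± 0.35 (adjusted p = 0.000543, edgeR). Of the transcription factors that act on these genes, MET4 and CBF1 were the 2 list members that rose by edgeR, with changes of 0.48 and 0.86 (adjusted p = 0.0479 and 0.0239), of which DESeq2 called 1, and MET32 fell, with a change of -1.24.

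The E-box CACGTG, the core of the site of Cbf1 and Pho4, was in 28.6% of the 21 promoters of the lower sulfate and methionine genes and in 2.9% of all promoters. The Gcn4 site TGACTC was in 23.8% of the 21 and in 8.0% of all. Both occurred in MET16 and MET28, whose E-boxes and Gcn4 sites are shown in capitals on the strand of the gene. In MET28 the Gcn4 site stands in the reverse orientation.
MET16, E-box, chrXVI:877793-877822, minus strand: ttatcatcatttCACGTGgctagtaaaaga
MET16, Gcn4 site, chrXVI:877763-877792, minus strand: aaagccacaacaTGACTCagcaaatctcga
MET28, E-box, chrIX:384321-384350, minus strand: gggtactgagtgCACGTGacttattttttt
MET28, Gcn4 site, chrIX:384204-384233, minus strand: ggtcactggcgtGAGTCAaggccgggcagc

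The stress response element STRE (AGGGG), the site of the general stress factors Msn2 and Msn4, was in 47.3% of the 74 promoters of lower genes, in 15.5% of the 284 promoters of higher genes and in 21.7% of all promoters. Of 40 general stress genes in the list, 2 (5%) were among the higher members and 1 (2.5%) among the lower, beside 4.89% and 1.25% of all genes. With scaling to total counts these were 3 and 0. By edgeR 2 of the 40 rose and 2 fell, where 13.2% and 8.58% of all genes did. The median change of the 40 was -0.08, 0.23, 0.40, -0.48 and -0.98 at points 2 to 6, so the list had no common direction. TFS1, an inhibitor of carboxypeptidase Y, measured 47.9, 67.5, 76.2, 40.5 and 33.5 CPM at points 2 to 6 and 159 CPM without drug, a change of -1.65 ± 0.50 (adjusted p = 0.0164, edgeR). Its STRE in the promoter is shown in capitals, beside that of HSP12, which changed the other way.
TFS1, STRE, chrXII:513885-513914, minus strand: tggtatataaaaAGGGGgcagcaagaaacg
HSP12, STRE, chrVI:107054-107083, plus strand: gttccggtcgtcCCCCTcttgatctgaaag

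HSP12, a small stress protein of the membrane, had the largest rise among the well-counted genes. It measured 995, 1056, 1142, 782 and 566 CPM at points 2 to 6 and 39.3 CPM without drug (chrVI:107256-107585), with the lowest mixture at point 6. The change was 4.49 ± 0.41 (counting SE 0.06, edgeR adjusted p = 0.000761), a 22.4-fold difference. BTN2, which sequesters misfolded proteins, measured 53.6, 69.6, 63.8, 53.5 and 18.2 CPM at points 2 to 6 and 6.04 CPM without drug, a change of 2.95 ± 0.78 (adjusted p = 0.0203, edgeR), and point 6 stood below the other 4. FES1, a nucleotide exchange factor of Hsp70, measured 64.5, 62.7, 61.7, 60.3 and 43.7 CPM at points 2 to 6 and 21.8 CPM without drug, a change of 1.41 ± 0.23 (adjusted p = 0.00472, edgeR). These 2 were the higher members among 29 heat shock chaperone genes (6.90%, near the 4.89% of all genes). By edgeR 6 of the 29 rose and 0 fell, beside 13.2% and 8.58% of all genes, and their median change was 0.09. ALD3, a stress-induced aldehyde dehydrogenase, measured 156, 194, 229, 83.7 and 54.1 CPM at points 2 to 6 and 25.3 CPM without drug and was not called by edgeR (adjusted p = 0.0554); 40.4% of its 50-base windows recur elsewhere in the genome, so reads of a copy may be in its counts.

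Of 32 cell cycle and DNA replication genes 7 (21.9%, beside 4.89% of all genes) passed the fold limit upward. With scaling to total counts 11 did, and more of all genes passed as well. By edgeR 20 rose and none fell, beside 13.2% and 8.58% of all genes, and the median change was 0.83. RNR1, the large subunit of ribonucleotide reductase, measured 245, 255.5, 248, 344 and 412 CPM at points 2 to 6 and 75.02 CPM without drug. It was highest at points 5 and 6, with a change of 1.97 ± 0.34 (adjusted p = 0.00583, edgeR). CDC6, which loads the replicative helicase, measured 22.7, 16.2, 20.9, 22.6 and 33.7 CPM at points 2 to 6 and 7.04 CPM without drug, a change of 1.68 ± 0.38 (adjusted p = 0.0171, edgeR). FAR1, an inhibitor of the cyclin-dependent kinase, measured 58.5, 54.8, 60.9, 74.2 and 116 CPM at points 2 to 6 and 22.3 CPM without drug, a change of 1.65 ± 0.44 (adjusted p = 0.0258, edgeR). The other members of the list above the limit were CLB2, CDC5, CDC20 and CDC45, which the naming rule did not select, with changes of 1.46, 1.24, 1.44 and 1.53.

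Of 26 genes of ribonucleotide reductase and the DNA damage response, 3 (11.5%, beside 4.89% of all genes) passed the limit upward. With scaling to total counts 5 did, and more of all genes passed as well. By edgeR 7 rose and 1 fell, where 13.2% and 8.58% of all genes did. Beside RNR1 they were RNR3, the damage-induced large subunit, at 30.5, 31.3, 33.2, 52.04 and 46.97 CPM at points 2 to 6 and 9.56 CPM without drug, with a change of 1.98 ± 0.36 (adjusted p = 0.00719, edgeR), and HUG1, an inhibitor of the enzyme, at 5.06, 6.28, 6.89, 3.72 and 4.93 CPM at points 2 to 6 and 0.688 CPM without drug. The change of HUG1 was 2.86 ± 0.34 (adjusted p = 0.00503, edgeR) and rested on 9 control counts.

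Of 41 genes of nitrogen sources and amino acid permeases, 5 (12.2%, beside 4.89% of all genes) passed the limit upward. By edgeR 8 rose and 3 fell, not far from the 13.2% and 8.58% of all genes. PUT4, the proline permease, measured 16.1, 11.9, 14.99, 8.05 and 8.70 CPM at points 2 to 6 and 0.918 CPM without drug, a change of 3.60 ± 0.45 on 12 control counts (adjusted p = 0.00442, edgeR). PUT1, proline oxidase, measured 31.4, 34.6, 40.2, 21.9 and 18.4 CPM at points 2 to 6 and 7.11 CPM without drug, a change of 1.98 ± 0.47 (adjusted p = 0.0172, edgeR). In both genes points 5 and 6 were below points 2 to 4. PUT2, the second enzyme of proline use, measured 86.5, 87.4, 98.8, 67.7 and 62.8 CPM at points 2 to 6 and 64.2 CPM without drug and was not called, with a change of 0.31 (adjusted p = 0.364, edgeR). ARO9, an aromatic aminotransferase, measured 118, 112, 98.4, 60.2 and 75.9 CPM at points 2 to 6 and 21.4 CPM without drug, a change of 2.07 ± 0.41 (adjusted p = 0.00769, edgeR), and TAT1, a permease of tyrosine and tryptophan, changed by 1.45 ± 0.10 (adjusted p = 0.00117, edgeR).

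Of 30 genes of the glyoxylate cycle, gluconeogenesis and fatty acid oxidation, 6 (20% beside 4.89% of all genes) passed the limit upward and 9 rose by edgeR, where 13.2% of all genes rose, with a median change of 0.46. PCK1, the key enzyme of gluconeogenesis, measured 14.4, 13.4, 13.5, 11.2 and 16.6 CPM at points 2 to 6 and 2.45 CPM without drug, a change of 2.47 ± 0.20 (adjusted p = 0.00117, edgeR). The carnitine genes CRC1 and YAT1 changed by 2.14 ± 0.19 and 1.64 ± 0.49, on 10 and 41 control counts. FBP1, which acts beside Pck1, had a change of 0.63 and was not called (adjusted p = 0.204, edgeR; named after its value was seen). HXT1, a low-affinity glucose transporter, measured 78.2, 91.4, 106, 134 and 133 CPM at points 2 to 6 and 22.2 CPM without drug, a change of 2.26 ± 0.34 (adjusted p = 0.00355, edgeR), and HXT5 changed by 1.53 ± 0.33. These were the 2 of 21 hexose transporters (9.52%) that passed the limit upward, beside 4.89% of all genes. By edgeR these 2 rose and 0 fell, beside 13.2% and 8.58% of all genes, and DESeq2 called 4.

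ALD6, which makes acetate, measured 238, 141, 299, 159 and 202 CPM at points 2 to 6 and 44.1 CPM without drug, a change of 2.18 ± 0.44 (adjusted p = 0.00912, edgeR), while ADH5, an alcohol dehydrogenase, measured 63.2, 66.4, 48.4, 43.6 and 31.6 CPM at points 2 to 6 and 164 CPM without drug and fell, with a change of -1.74 ± 0.43 (adjusted p = 0.00684, edgeR). PDC6, a minor pyruvate decarboxylase, changed by 1.62 ± 0.36 on 20 control counts. Of these 27 glycolysis and fermentation genes 2 (7.41%) passed the limit upward and 1 (3.70%) downward, beside 4.89% and 1.25% of all genes. By edgeR 2 of the 27 rose and 6 fell, beside 13.2% and 8.58% of all genes.

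Among phosphate, cell wall and ergosterol genes the members were few. PHO84, the high-affinity phosphate transporter, measured 838, 712, 592, 628 and 628 CPM at points 2 to 6 and 281 CPM without drug, a change of 1.26 ± 0.20 (adjusted p = 0.00727, edgeR). PHO3, a phosphatase that also answers to thiamine, changed by 1.53 ± 0.23, and PHM7 by 1.44 ± 0.23. With PHO84 they made 3 of 30 phosphate genes (10%, beside 4.89% of all genes). By edgeR 9 of the 30 rose and 1 fell, beside 13.2% and 8.58% of all genes. CWP1, a mannoprotein of the cell wall, measured 67.5, 86.7, 113, 101 and 92.98 CPM at points 2 to 6 and 26.2 CPM without drug, a change of 1.79 ± 0.28 (adjusted p = 0.00389, edgeR). With PIR3 (1.33 ± 0.28) and the glucanase EXG1 (1.30 ± 0.14) it made 3 of 53 cell wall genes (5.66%), near the 4.89% of all genes. The list held 7 with scaling to total counts, where more of all genes passed as well. By edgeR 10 of the 53 cell wall genes rose and 3 fell, beside 13.2% and 8.58% of all genes. ERG5, which desaturates the sterol side chain, measured 87.2, 101, 91.3, 74.9 and 81.6 CPM at points 2 to 6 and 26.5 CPM without drug, a change of 1.71 ± 0.16 (adjusted p = 0.00127, edgeR). It was the 1 member of 30 ergosterol genes (3.33%, beside 4.89% of all genes). By edgeR 5 of the 30 rose and 4 fell, beside 13.2% and 8.58% of all genes.

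Calcineurin is a phosphatase activated by calcium. Of 19 calcineurin and calcium genes 3 (15.8%, beside 1.25% of all genes) passed the limit downward, and 2 with scaling to total counts. By edgeR 8 fell and 1 rose, beside 8.58% and 13.2% of all genes, and the median change was -0.33. RCN1, an inhibitor of calcineurin, measured 9.69, 9.85, 8.80, 6.51 and 6.78 CPM at points 2 to 6 and 39.9 CPM without drug, a change of -2.28 ± 0.28 (adjusted p = 0.000453, edgeR). CMK2, a calmodulin-dependent kinase, measured 91.9, 102, 106, 117 and 67.6 CPM at points 2 to 6 and 341 CPM without drug, a change of -1.84 ± 0.30 (adjusted p = 0.00167, edgeR). PMC1, the calcium pump of the vacuole, measured 112, 139, 147, 133 and 108 CPM at points 2 to 6 and 309 CPM without drug, a change of -1.29 ± 0.20 (adjusted p = 0.00267, edgeR). By the rule that chose the 3 genes, their mixture values lay at least 2-fold below the control, and those of PMC1 came nearest to it.

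Single members of further lists also fell. With scaling to total counts the lists that hold ARG4, MPD1, PIG2 and URA8 had 0 lower members, and the list that holds OPI3 had 1. ARG4, of arginine synthesis, measured 75.1, 56.6, 42.1, 26.8 and 39.7 CPM at points 2 to 6 and 159 CPM without drug, a change of -1.81 ± 0.56 (adjusted p = 0.0171, edgeR). It was the 1 lower member of 61 amino acid genes under Gcn4 (1.64%, near the 1.25% of all genes). By edgeR 2 of the 61 rose and 3 fell, beside 13.2% and 8.58% of all genes. OPI3, a phospholipid methyltransferase, changed by -1.46 ± 0.10, MPD1, an oxidoreductase of the endoplasmic reticulum, by -1.20 ± 0.17, PIG2, of glycogen metabolism, by -1.44 ± 0.28, and URA8, a CTP synthase, by -1.16 ± 0.08. All 4 were called by edgeR, with adjusted p of 0.000363, 0.00289, 0.00363 and 0.000798. Upward, lists with few members held THI7, the thiamine transporter (1.54 ± 0.22), FIT2, a wall protein that binds iron chelates (1.42 ± 0.37), and PRP43, a helicase of both splicing and ribosome assembly (1.45 ± 0.14).

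**Figure D5:**
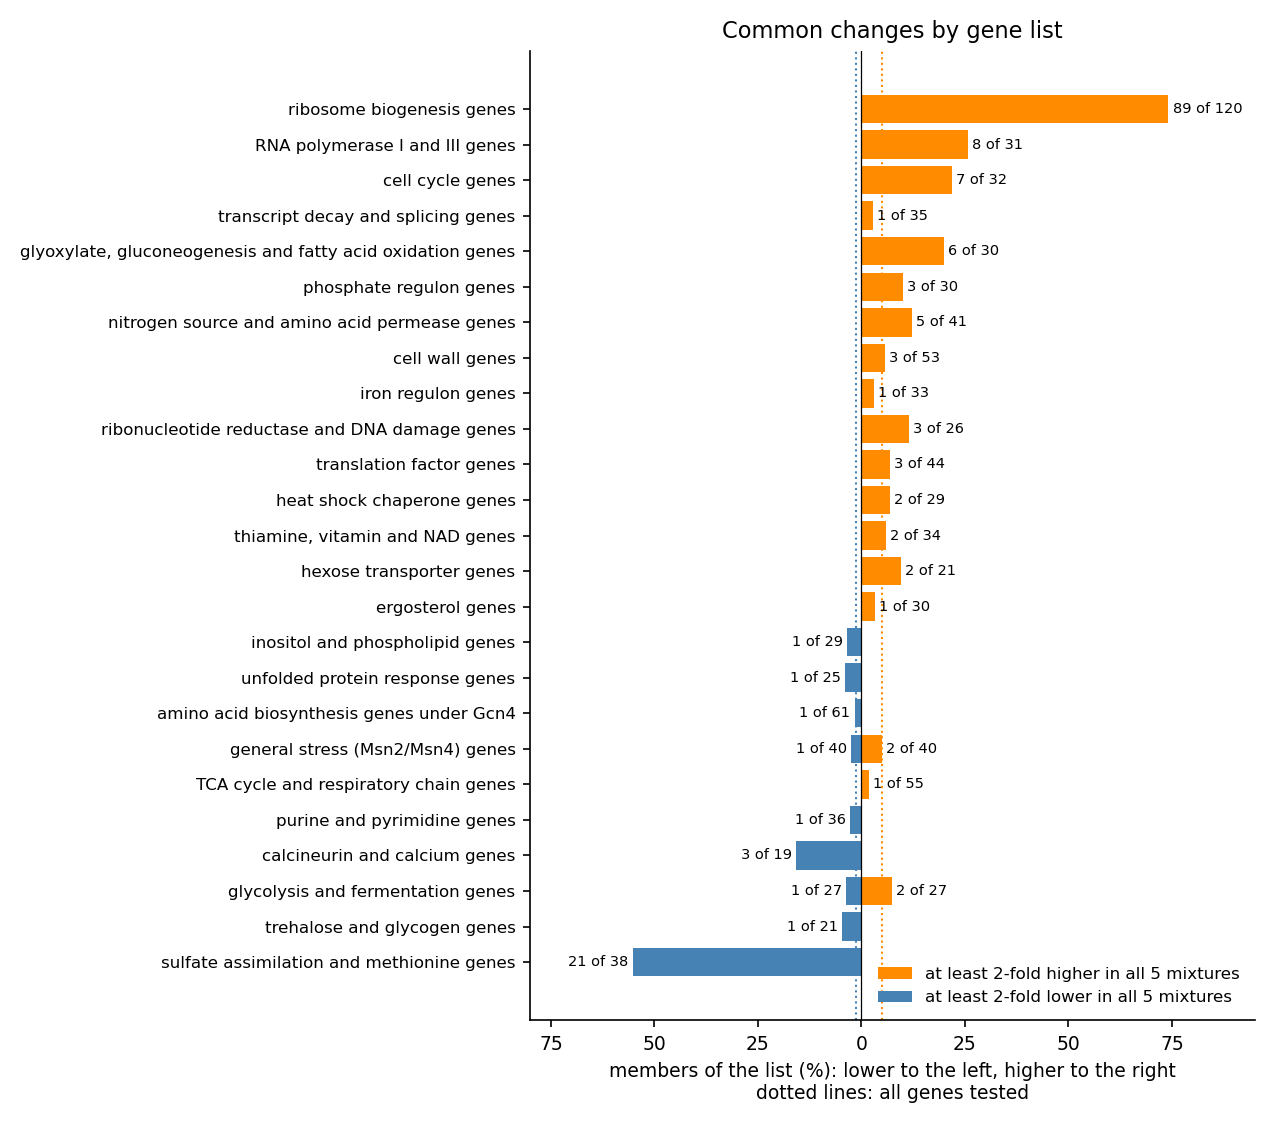
Share of each list's members (horizontal axis, %) that were at least 2-fold higher in all 5 mixtures (orange, to the right) or at least 2-fold lower (blue, to the left), with the counts beside the bars and dotted lines at the share of all genes, 4.89% and 1.25%. Ribosome biogenesis genes (89 of 120) and sulfate and methionine genes (21 of 38) stand out from the other lists shown, those with at least 1 common member.

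Several of the largest changes were in genes of little or no known function. NQM1, a homologue of transaldolase, measured 78.9, 109.9, 128, 71.00 and 57.98 CPM at points 2 to 6 and 11.1 CPM without drug, a change of 2.94 ± 0.46 (adjusted p = 0.00452, edgeR). YHR033W measured 21.4, 18.6, 25.6, 12.7 and 15.7 CPM at points 2 to 6 and 2.45 CPM without drug, a change of 2.88 ± 0.39 (adjusted p = 0.00389, edgeR). Downward, YMR085W measured 6.39, 6.57, 7.53, 5.95 and 5.63 CPM at points 2 to 6 and 37.6 CPM without drug, a change of -2.55 ± 0.16 (adjusted p = 9.56e-05, edgeR). LEE1 measured 3.38, 5.21, 8.23, 3.10 and 2.43 CPM at points 2 to 6 and 21.03 CPM without drug, a change of -2.37 ± 0.69 (adjusted p = 0.0115, edgeR). YDR278C (chrIV:1017001-1017318) and YNL285W (chrXIV:96173-96544) are counted as CDS in the deposited table but carry no RefSeq annotation, and both lie within 50 bases of a tRNA gene. YDR278C measured 7.71, 5.83, 4.47, 10.7 and 18.2 CPM at points 2 to 6 and 84.96 CPM without drug, and YNL285W 13.3, 12.5, 11.2, 15.6 and 28.6 CPM at points 2 to 6 and 76.2 CPM without drug, with 10% and 11.5% of 50-base windows repeated in the genome. In both, point 6 was the mixture nearest to the control. Whether their reads belong to the CDS was not tested.

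Members near the fold limit show how it divides similar genes. FES1 and FIT2 were just inside upward, with lowest changes of 1.002 and 1.002, and RRN7 and UTP22 just outside, with 0.998 and 0.99. URA8 and YDC1 were just inside downward, with changes nearest to 0 of -1.02 and -1.001, and YJL163C and GYP7 just outside, with -0.99 and -0.98.

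Along the mixtures, from the cycloheximide-rich to the LiCl-rich end, none of the 389 members passed edgeR's test of the slope, which uses the 5 mixtures alone. The rule admits no gene that crosses the control level along the mixtures, and few slopes passed over all genes. The absence of calls therefore does not show that the members were level. Over all genes 15 (0.236%) passed, all falling toward LiCl, 7 of them ribosomal protein genes. At an unadjusted p under 0.05, 569 of the 6343 genes rose along the mixtures and 738 fell by edgeR. DESeq2 called 81 rising and 329 falling slopes among the 4006 genes it tested. Among the higher members 41 rose and 34 fell along the mixtures at an unadjusted p under 0.05, and among the lower 5 and 12. DESeq2 called 6 rising and 7 falling slopes among the higher members and 0 and 6 among the lower. The number of calls depended on single libraries. Over all genes the test called 409 slopes without point 2, 310 without point 4, 5 without point 5, and 0 without point 3 or point 6. The members with the steepest slopes downward were DPA10, YMR175W-A and SPG4, at -0.63, -0.57 and -0.44 log2 per point. DPA10 had 34, 55, 29, 10 and 8 counts at points 2 to 6 and 0 without drug. Against a floor of 3 counts in the control it was at least 10.9-, 13.6-, 8.07-, 2.70- and 2.23-fold higher. YMR175W-A had 51, 111, 90, 22 and 12 counts and 4 without drug, and SPG4 114, 146, 146, 48 and 43 and 4. The members with the steepest slopes upward were YDR278C, YGL177W and YOL038C-A, at 0.36, 0.35 and 0.32 log2 per point. YGL177W measured 4.04, 4.59, 5.10, 8.55 and 9.79 CPM at points 2 to 6 and 1.84 CPM without drug, and YOL038C-A 0.587, 1.76, 1.85, 2.11 and 2.30 CPM at points 2 to 6 and 5.28 CPM without drug. YGL177W carries no RefSeq annotation and overlaps YGL178W, so its counts may hold reads of that neighbour. DPA10, YMR175W-A and YGL177W were not called by edgeR against no drug, with adjusted p of 0.0835, 0.139 and 0.0658.

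Single drugs were compared with the mixtures without the control, by a term for mixtures beside the isobole point over the 7 isobole libraries. The cycloheximide only and LiCl only libraries held 23522386 and 28042336 CDS counts, more than any mixture. Whether depth bears on this comparison was not tested. Over all genes 33 (0.520%) lay above the line between cycloheximide only and LiCl only and 20 (0.315%) below it, and 20 and 27 with scaling to total counts. At an unadjusted p under 0.05, 494 of the 6343 genes lay above the line and 461 below it by edgeR. DESeq2 called 120 above and 53 below among the 5974 genes it tested. Of the 310 higher members 15 lay above the line and 0 below, with 63 above and 5 below at an unadjusted p under 0.05. Of the 79 lower members 10 lay below it and 0 above, with 31 below and 1 above at an unadjusted p under 0.05. DESeq2 called 32 of the higher members above the line and 13 of the lower below it, with 0 the other way in each. Leaving out point 3 or point 5 left 0 genes called by edgeR. Members were chosen on the same mixture libraries, so these counts are a description.

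The single drugs moved the members' medians in the same direction as the mixtures. The median log2 change over no drug of the 310 higher members was 1.43 at cycloheximide only and 1.94 at LiCl only, beside 1.66 to 1.93 in the mixtures, and that of the 79 lower members was -1.21 and -1.64, beside -1.90 at point 6 to -1.63 at point 3 and -1.601 at point 4. These comparisons share the control library. PUF6 measured 118 CPM in cycloheximide only and 120.2 CPM in LiCl only, within its range in the mixtures, and MET3 16.1 CPM in cycloheximide only and 15.3 CPM in LiCl only, above its 11.3 to 12.2 CPM in the mixtures.

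The members named here were called by edgeR against that line, calls that were all lost without point 3 or point 5, and since the rule used the mixture levels their values are given with no test. CWP1 measured 43.5 CPM in cycloheximide only and 22.6 CPM in LiCl only, below its 67.5 to 113 CPM in the mixtures, with the mixtures 1.54 log2 above the line. HSP12 measured 522 CPM in cycloheximide only and 248 CPM in LiCl only, with a difference of 1.31, and ERG5 63.96 CPM in cycloheximide only and 40.1 CPM in LiCl only, with a difference of 0.78. PHO84 measured 574 CPM in cycloheximide only and 269.7 CPM in LiCl only, with a difference of 0.78, and its level at LiCl only was below that without drug. In these 4 genes each mixture was above both single drugs. Among the lower members, CMK2 measured 169 CPM in cycloheximide only and 246 CPM in LiCl only, with a difference from the line of -1.08 log2, and MET14 14.5 CPM in cycloheximide only and 10.9 CPM in LiCl only, with a difference of -0.78. In both genes each mixture was below both single drugs.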

How the data were processed

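Ribodepleted RNA of 8 yeast libraries was read as 50-base single ends. The deposited CDS counts are whole numbers that the authors made with TopHat alignments to build R64 and featureCounts v1.6.2, with multi-mapping and overlapping reads counted and no strand setting. Intron tables were not used here. No columns of other samples were present.

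Genes with a mean of at least 20 counts over the 5 mixtures and no drug were kept. Counts were scaled by TMM (edgeR 4.0.16 in R 4.3.3) and log2 changes were taken with 0.5 counts added. edgeR's quasi-likelihood test with Benjamini-Hochberg adjustment was fitted to the counts over all genes kept, and DESeq2 1.42.0 was an alternative. The slope was tested along the 5 mixtures and the mixtures against the line through the single drugs. The p-values measure only the spread between these libraries, and the labels do not state separate cultures.

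Named genes were the 12 largest common rises and falls with a mean of at least 100 counts and no overlapping CDS, up to 3 further common genes per list, the 2 genes on each side of the fold limit, the genes deleted in the strain and the 3 steepest slopes each way. Other genes were named after their values were seen. A further result under this rule is not reported here. The members and lists were chosen with earlier results of these data known. Promoters (250 bases before to 50 after the start codon) were read from the RefSeq R64 genome, since no promoter table was used here. A gene was taken to hold repeated sequence where over 10% of its 50-base windows recurred in the genome. Alternatives covered scaling, filter, counts added, fold limit, overlapping genes, the test and leaving out each mixture. Leaving out genes with repeated sequence and genes within 50 bases of an RNA gene or repeat was added after seeing the data.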

Additional observations from a re-analysis of the deposited data

Results flagged for a closer look

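In 5 of the 84 named genes 1 mixture stood far from the other 4 in its log2 change over no drug, by Dixon's test at the 95% level. For genes not chosen by their values, chance alone would give such a library in about 1 in 20. YOL038C-A was named for its slope, and FES1 and URA8 also as nearest to the fold limit, so that rate need not hold here. BTN2 was 1.58 at point 6, where the nearest of the other mixtures was 3.14. FES1 was 1.00 at point 6, with the nearest at 1.47. SEO1 was -3.40 at point 5, with the nearest at -2.64. URA8 was -1.02 at point 2, with the nearest at -1.17. YOL038C-A was -3.09 at point 2, with the nearest at -1.58. Each of the 5 kept its direction in all 5 mixtures, by the rule that chose the members.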

How the results depend on the processing

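The 310 higher and 79 lower genes became 480 and 47 with scaling to total CDS counts, 668 and 270 with a 1.5-fold limit, and 2273 and 2028 when any size in the same direction was accepted. With each mixture left out in turn they numbered 321 to 338 and 82 to 101. DESeq2 size factors, the filters, 5 counts added and leaving out overlapping, repeated-sequence or RNA-neighbouring genes kept both counts within 1.5 times. The edgeR calls against no drug were 1368 higher and 205 lower with scaling to total counts, and lower calls were 843 with the isobole point as a covariate. With each mixture left out, higher calls ranged from 689 to 955 and lower calls from 408 to 630. The 15 slopes became 410 with DESeq2 and ranged from 0 to 409 with each mixture left out. The 53 genes off the line between the single drugs became 173 with DESeq2 and ranged from 0 to 78. The cause of these changes was not tested. The no drug library could not be left out, since it is the only one, and a difference that belongs to that library alone cannot be told apart from the effect of the drugs. Genes with few counts without drug, such as DPA10 at 0 and YMR175W-A at 4, limit the precision of their changes. No paired analysis was possible because the groups compared share fewer than 2 replicate numbers.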
